A study of Mus musculus with 6 samples.

Results

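The aminoacyl-tRNA synthetases were followed in mouse 3T3 cells after treatment with a GapmeR against the long noncoding RNA Ntep. Members were chosen by name: every probe that the array files assign to 1 of 36 synthetase genes was taken, without regard to its signal. They comprised 20 genes for enzymes of the cytosol (23 probes) and 16 genes, with names ending in 2, for enzymes of the mitochondria (22 probes). Together these were 36 of the 35527 names of genes or transcripts on the array and 45 of its 55681 probes, and all 45 were bright enough to be among the 30990 probes tested.

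Each synthetase joins 1 kind of amino acid to its matching tRNA, and the charged tRNA then carries that amino acid to the ribosome. Mitochondria translate their own small genome and use a separate set of synthetases, which are encoded in the nucleus and imported. Glycyl- and lysyl-tRNA synthetase (Gars and Kars) serve both compartments from a single gene, and Eprs joins glutamyl- and prolyl-tRNA synthetase in 1 protein. Many cytosolic synthetase genes are known targets of ATF4, the transcription factor of the integrated stress response, which is induced when uncharged tRNA accumulates or the endoplasmic reticulum is under stress. Several cytosolic enzymes, among them Eprs and Qars, sit together in the multi-synthetase complex on the scaffold proteins Aimp1, Aimp2 and Eef1e1.

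3T3 cells are an established line of mouse fibroblasts. Cells received either GapmeR Ntep or GapmeR control at 50 nM and total RNA was taken after 48 h. A GapmeR is an antisense oligonucleotide with a DNA core that lets RNase H cut the RNA it pairs with, and a single GapmeR sequence stood for the silencing of Ntep. Each treatment was hybridised to 3 arrays in 1 color, 1 from each of 3 experiments. Values are quantile-normalized fluorescence signals on a linear scale, and differences are log2 values of GapmeR Ntep minus GapmeR control with the SE of the limma fit. A probe passed the test at an adjusted p under 0.05, by the Benjamini-Hochberg method over all 30990 tested probes.

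The share of probes well above background was 43.7% to 53.3% per array, no probe was saturated, and arrays correlated at 0.959 to 0.989. The only probe for Ntep (A630089N07Rik, chr16:98283712-98283771 in mm9, minus strand) gave 471.9, 91.5 and 226.2 on the arrays labelled GapmeR Ntep and 271.4, 272.4 and 361.2 on the arrays labelled GapmeR control. Its difference was -0.48 (SE 0.58, limma adjusted p = 0.632). In experiment 1 the Ntep signal was higher on the array labelled GapmeR Ntep, against its label, so arrays are named by label throughout and the main counts are also given without that experiment. The fibroblast collagen genes Col1a1 and Col3a1 differed by -0.53 and -1.15 in experiment 1, with the same sign in the other experiments. The median of all 10 fibroblast markers was -0.56 in experiment 1, where Thy1 was at -0.03 and Vim at 0.07. Of 10 fibroblast markers, 9 were well above background on all arrays, and their summed signal was 555718 to 737409 on the arrays labelled GapmeR Ntep against 808198 to 891263 on the control arrays. Of 4 macrophage and leukocyte markers on the array, 2 (Emr1 and Ptprc) were never above background, while the summed signal was 10640 to 16853 against 4507 to 6476. The 4 epithelial markers summed to 2727 to 5354 against 1767 to 3750, and the 3 endothelial markers, of which Cdh5 was never above background, to 708 to 786 against 539 to 615. The part of these shifts in the results below was not tested. As the RNA came from whole cultures, fewer cells of a kind and less RNA per cell cannot be told apart.

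Because ATF4 is known to bind its targets at a C/EBP-ATF response element, the letters TGATGNAA were searched on both strands in RefSeq promoter windows of GRCm38.p6 that run from 250 bases before to 50 bases after a gene's start. Of the 36 members, 27 had a window. The letters were found in 5 of 13 cytosolic members with a window and in 0 of 14 mitochondrial members, against 3.97% of all 32851 windows. All 5 cytosolic members are commonly listed as ATF4 targets, of which 8 had a window. For comparison, the common promoter letters CCAAT were in 7 of the 13 cytosolic and 6 of the 14 mitochondrial members, against 37.4% of all windows. The matches are shown because they mark the synthetases whose promoter window holds the letters of the ATF4 element. Each line holds 30 bases around the match nearest the start, in the direction of the gene and with the match in capitals. Only the Yars match reads as searched, and the others are its reverse complement.
Aars, chr8:111033840-111033869, plus strand, match from base 10 after the start: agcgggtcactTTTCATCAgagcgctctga
Gars, chr6:55037960-55037989, plus strand, match from 30 bases before the start: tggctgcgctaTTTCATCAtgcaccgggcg
Iars, chr13:49682126-49682155, plus strand, match from base 8 after the start: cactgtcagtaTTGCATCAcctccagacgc
Tars, chr15:11399655-11399684, minus strand, match from 15 bases before the start: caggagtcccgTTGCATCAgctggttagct
Yars, chr4:129189895-129189924, plus strand, match from base 4 after the start: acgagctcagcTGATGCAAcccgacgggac
A match is a string of letters and does not show binding. On the arrays, these 5 genes differed by 0.62 (Aars), 0.37 (Tars), 0.28 (Iars), 0.14 (Yars) and 0.09 (Gars), and none of these differences passed the test.

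With the brightest probe standing for each gene, the difference was positive for 15 of the 20 cytosolic synthetases and negative for 5, with a median of 0.25. Of the 16 mitochondrial synthetases 4 were higher and 12 lower, with a median of -0.23. Over all tested probes the median was 0.06 and 54.5% were higher. Without experiment 1 the split was again 15 to 5 in the cytosol (median 0.36), but 7 to 9 in the mitochondria (median -0.10). The shift of the mitochondrial list therefore depended in size on experiment 1, and leaving out the array labelled GapmeR Ntep of that experiment alone brought its median to -0.07. When arrays were scaled to their 75th percentile instead, the median of all tested probes moved from 0.06 to 0.22, the cytosolic median to 0.40 and the mitochondrial median to -0.14.

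Few single members passed the test. In the cytosol 1 of 20 genes rose (Wars, by its dimmer probe) and 0 fell, where 2.09% of all tested probes rose and 3.21% fell, or 5.3% in either direction. In the mitochondria 0 of 16 genes passed in limma, and 0 by the t-test of the study's methods. The study's own limits are a fold of at least 2 with an unadjusted p under 0.01. Past them in limma were Wars and Aars, both higher and each by its dimmer probe. That Aars probe was not well above background on any control array, so its fold is only a bound. No cytosolic gene was lower and no mitochondrial gene was past them, where 3.08% of all tested probes were higher and 5.06% lower. At an unadjusted p under 0.05 in limma, 3 cytosolic genes were higher (Wars, Aars and Hars) and 2 lower (Eprs and Vars), and 5 mitochondrial genes were lower (Fars2, Hars2, Vars2, Ears2 and Rars2) and 0 higher, against 12.5% of all tested probes in each direction. With the experiments as a block the genes past the adjusted threshold were Wars (higher) and Eprs, Qars and Fars2 (lower), where 6.54% of all tested probes were higher and 7.31% lower. With 3 arrays per label small changes can be missed. On simulated arrays, 1% of the 100 probes set to differ by 1 on the log2 scale were recovered, and 46% of the 100 set at 2. Far fewer probes were changed there than the 1642 that passed in the data, which makes the adjustment stricter. These shares are therefore not the recovery in the data.

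**Figure D1:**
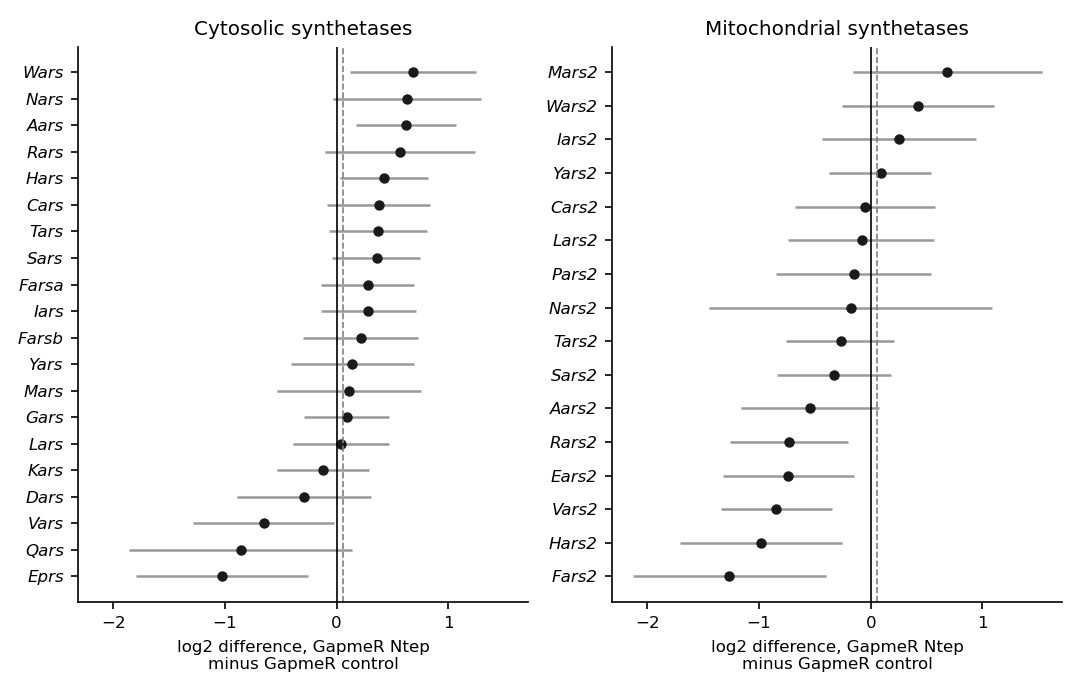
Log2 difference between the arrays labelled GapmeR Ntep and GapmeR control (x axis) for each synthetase gene by its brightest probe, ordered by size, with the cytosolic genes on the left and the mitochondrial genes on the right. Points are limma estimates from 3 arrays per label, bars their 95% intervals, and the dashed line the median of all tested probes at 0.06. Cytosolic genes run from -1.03 (Eprs) to 0.68 (Wars) and mitochondrial genes from -1.27 (Fars2) to 0.68 (Mars2).

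Wars, tryptophanyl-tRNA synthetase, is also known as an interferon-inducible gene. Its dimmer probe (chr12:110104366-110104425 in mm9, minus strand) gave 2124, 2816 and 2995 on the arrays labelled GapmeR Ntep and 1284, 1021 and 1011 on the control arrays of experiments 1, 2 and 3. All 3 GapmeR Ntep arrays lay above all control arrays. Wars thus rose 2.38-fold by this probe (log2 difference 1.25, SE 0.21, limma adjusted p = 0.0352, and 0.0446 with experiments as a block). Without experiment 1 the difference was 1.50 (limma adjusted p = 0.0462). The brighter probe (chr12:110098245-110098304) gave 51690, 50949 and 55176 against 44520, 28380 and 27695. These arrays did not overlap either, but the difference of 0.68 (SE 0.23, limma adjusted p = 0.141) did not pass. The call on the dimmer probe was lost when any array but the GapmeR Ntep array of experiment 1 was left out, with limma adjusted p-values up to 0.154. It was also lost by the methods' t-test (adjusted p = 0.0734) and without the filter on dim probes.

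By brightest probe, Eprs had the largest difference among the cytosolic members. It gave 1298, 1865 and 2706 with GapmeR Ntep against 3060, 4098 and 4436 with the control. The groups did not overlap, and the difference of -1.03 (SE 0.32) did not pass without the block (limma adjusted p = 0.114) and passed with it (0.041). Within experiments it was -1.24, -1.14 and -0.71. Qars, which charges glutamine tRNA in the cytosol, gave 16781, 42682 and 31630 against 36502, 66790 and 55248. Its groups overlapped, as the GapmeR Ntep array of experiment 2 was above the control array of experiment 1, yet within each experiment the GapmeR Ntep array was lower, by 1.12, 0.65 and 0.80 on the log2 scale. The difference of -0.86 (SE 0.41) had a limma adjusted p of 0.257, and of 0.0474 with the experiments as a block. Vars, valyl-tRNA synthetase, gave 1691, 3184 and 2384 against 3644, 3806 and 3596. These groups did not overlap, and the difference of -0.65 (SE 0.26) passed neither without the block (limma adjusted p = 0.188) nor with it (0.12). Without experiment 1 the differences were -0.92 for Eprs, -0.72 for Qars and -0.42 for Vars, with limma adjusted p-values of 0.106, 0.141 and 0.267.

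**Figure D2:**
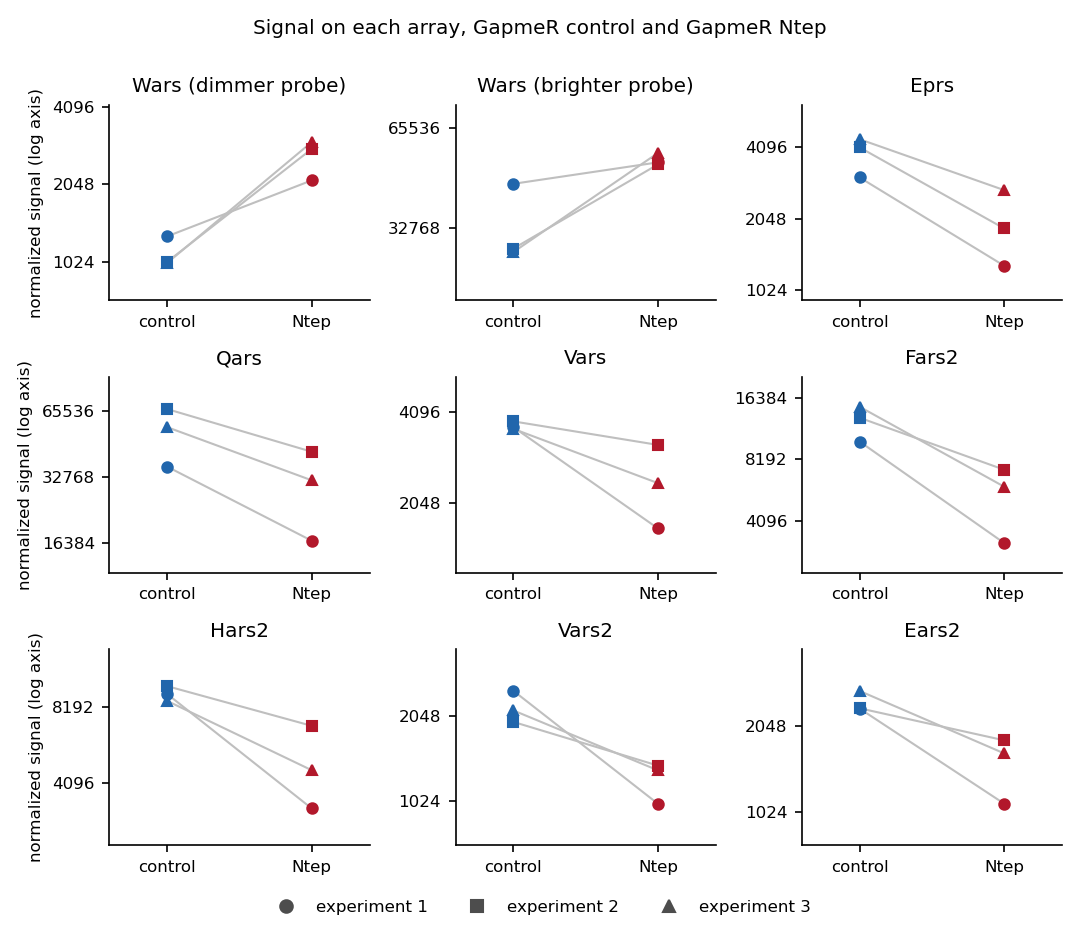
Normalized signal (y axes, log scale, each gene on its own range) of both Wars probes and of the cytosolic and mitochondrial members with the largest differences, on the GapmeR control (left, blue) and GapmeR Ntep (right, red) arrays. Lines join the arrays of the same experiment, with circles, squares and triangles for experiments 1, 2 and 3. Both Wars probes were higher on the GapmeR Ntep array in every experiment, and the other 7 genes shown were lower in every experiment.

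Of the other cytosolic members, the largest positive differences were those of Nars at 0.63 (SE 0.27, limma adjusted p = 0.218), Aars at 0.62 (SE 0.19, 0.108) and Rars at 0.57 (SE 0.28, 0.259). Hars (0.42), Cars (0.38), Tars (0.37), Sars (0.36), Farsa and Iars (0.28 each) and Farsb (0.22), the last with Farsa a subunit of phenylalanyl-tRNA synthetase, lay above the median of all probes. Yars (0.14), Mars (0.11), Gars (0.09), Lars (0.04), Kars (-0.12) and Dars (-0.29) lay between -0.29 and 0.14. The signs of Kars, Lars and Mars turned under another scaling or without 1 array. Aars, Hars, Iars and Sars joined Wars as the 5 cytosolic members whose GapmeR Ntep arrays all lay above the control arrays, where 17% of all tested probes did so, and Eprs and Vars were the 2 that lay fully below, where 15.1% did. Within experiments, 10 of 20 cytosolic members were higher in all 3 and 4 lower in all 3, against 32.4% and 26.7% of tested probes. The median difference of the cytosolic list was 0.01 in experiment 1, 0.26 in experiment 2 and 0.37 in experiment 3.

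The 13 cytosolic members commonly listed as ATF4 targets had a median difference of 0.28, with 11 higher and 2 lower, and the 7 others a median of 0.22, with 4 higher and 3 lower. The exceptions among the listed targets were Eprs and Vars. Of the 8 enzymes of the multi-synthetase complex 4 were higher and 4 lower (median -0.04), and of the 12 cytosolic members outside it 11 were higher and 1, Vars, was lower (median 0.36). The complex thus held 4 of the 5 lower cytosolic members, namely Eprs, Qars, Dars and Kars. This split is not firm, as the signs of Kars, Lars and Mars, all in the complex, turned under another scaling or without 1 array. The 3 scaffold genes of the complex differed by 0.07 (Aimp1), 0.10 (Eef1e1) and 0.31 (Aimp2), and 0 passed in limma, with 0 also at an unadjusted p under 0.05. By fold of the catalytic domain, cytosolic class I enzymes had a median of 0.13 (7 higher, 3 lower) and class II enzymes of 0.32 (8 higher, 2 lower), with Eprs, which holds an enzyme of each class, counted in class I. These are descriptions of lists, and no difference between lists was tested.

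Among the mitochondrial members, Fars2, phenylalanyl-tRNA synthetase of the mitochondria, had the largest difference. It gave 3184, 7293 and 6020 on the arrays labelled GapmeR Ntep against 10026, 13124 and 14859 on the control arrays. No GapmeR Ntep array reached the lowest control array. The difference was -1.27 (SE 0.35), with a limma adjusted p of 0.0927 without the block and 0.0404 with it, and -1.06 without experiment 1 (limma adjusted p = 0.0646). Hars2, the mitochondrial histidine enzyme, gave 3244, 6911 and 4603 against 9250, 9940 and 8684. Its groups did not overlap (difference -0.98, SE 0.30, limma adjusted p = 0.11). Vars2, the valine enzyme, gave 1002, 1366 and 1314 against 2508, 1948 and 2138. The groups did not overlap, and the difference of -0.85 (SE 0.20) did not pass (limma adjusted p = 0.0685). It passed with normexp background correction (0.0478) or when only probes well above background on all arrays were tested (limma adjusted p = 0.0413). Ears2, the glutamate enzyme, gave 1094, 1828 and 1645 against 2364, 2370 and 2727. These did not overlap either (difference -0.74, SE 0.24, limma adjusted p = 0.128).

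Rars2, at -0.73 (SE 0.22, limma adjusted p = 0.108), was the fifth mitochondrial member without overlap between groups. No mitochondrial member lay fully above the controls, where 15.1% of all tested probes lay fully below and 17% fully above. In each of these 5 genes the array labelled GapmeR Ntep of experiment 1 had the lowest signal of all 6 arrays. The remaining members were Aars2 at -0.54, Sars2 at -0.33, Tars2 at -0.27, Nars2 at -0.18, Pars2 at -0.15, Lars2 at -0.08, Cars2 at -0.05, Yars2 at 0.09, Iars2 at 0.25, Wars2 at 0.42 and Mars2 at 0.68, with limma adjusted p-values from 0.247 to 0.917. The Nars2 probe was well above background on 1 array only, so its value carries no direction, and without it 11 of 15 mitochondrial members were lower. Within experiments 8 of 16 mitochondrial members were lower in all 3 and 3 were higher in all 3, against 26.7% and 32.4% of tested probes. Leaving out Nars2, all 6 mitochondrial class II enzymes had a negative difference (median -0.44), though that of Pars2 turned to 0.02 without experiment 1, against 5 of 9 class I enzymes (median -0.05). For all 16 mitochondrial members the median was -0.60 in experiment 1, 0.00 in experiment 2 and -0.18 in experiment 3.

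The lists were then set side by side on each array. For the 20 cytosolic genes the mean log2 signal reached 14.35, 14.48 and 14.54 with GapmeR Ntep and 14.44, 14.31 and 14.29 with the control in experiments 1, 2 and 3. That of the 16 mitochondrial genes was 11.22, 11.76 and 11.69 against 11.87, 11.82 and 11.87. The level of either mean depends on its probes, so only its shift between arrays can be read. The cytosolic minus mitochondrial mean came to 3.13, 2.72 and 2.85 with GapmeR Ntep against 2.57, 2.49 and 2.42 with the control. It was higher in every experiment and the groups did not overlap. In experiment 1 the shift came from the mitochondrial mean, while the cytosolic mean was lower as well. In experiment 2 the cytosolic mean was higher by more than the mitochondrial mean was lower, and in experiment 3 the cytosolic mean was higher and the mitochondrial mean lower.

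**Figure D3:**
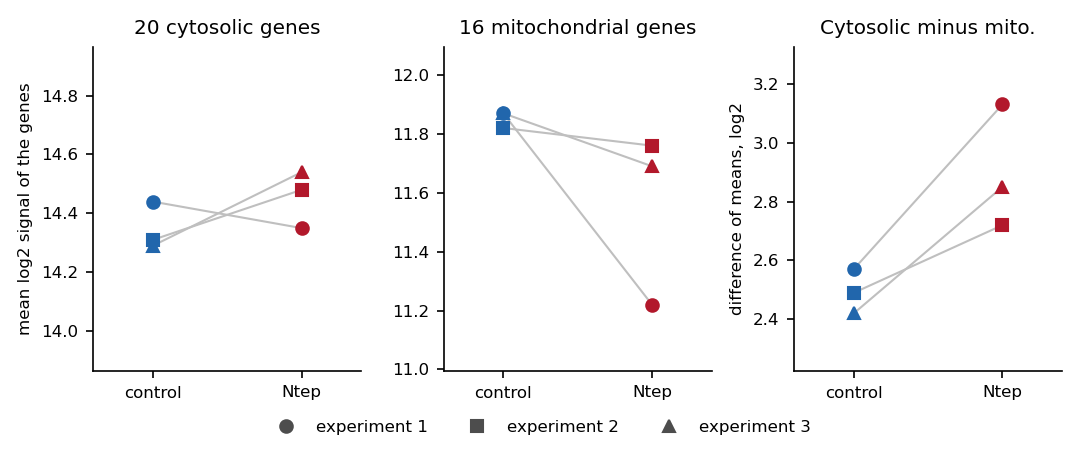
Mean log2 signal of the 20 cytosolic genes (left), of the 16 mitochondrial genes (middle) and the difference of these means (right) on each array, by brightest probe. Lines join the control and the GapmeR Ntep array of an experiment, and all y axes span the same log2 range. The difference lies between 2.42 and 2.57 on the control arrays and between 2.72 and 3.13 on the GapmeR Ntep arrays.

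Enzymes for the same amino acid could be compared in 15 pairs, with Eprs set against both Ears2 and Pars2. In 12 pairs the cytosolic difference was above the mitochondrial one. In 8 pairs the cytosolic gene was higher and the mitochondrial gene lower, in 4 both were higher and in 3 both were lower. Without the asparagine pair, which rests on the dim Nars2 probe, the cytosolic difference was above in 11 of 14 pairs and 7 had opposite signs. Phenylalanine was not paired, because its cytosolic enzyme has 2 subunit genes, Farsa (0.28) and Farsb (0.22), both above Fars2 (-1.27). The change of the cytosolic gene exceeded that of its partner by 1.41 for Hars and Hars2, 1.30 for Rars and Rars2, 1.16 for Aars and Aars2, 0.68 for Sars and Sars2 and 0.64 for Tars and Tars2 on the log2 scale. Each of these 5 pairs reached the smallest two-sided p that an exact permutation test of 3 against 3 arrays allows, 0.1, so none could pass 0.05. Eprs and Pars2 reached it in the opposite direction, at -0.87. How often pairs of other genes reach it was not counted, so the number of such pairs cannot be called unusual. The histidine pair differed by 1.89, 1.11 and 1.21 in experiments 1, 2 and 3, and the alanine pair by 1.59, 0.91 and 0.99. Of the 14 pairs without Nars2, 6 had a positive difference in all 3 experiments and 2 (Eprs with Pars2, and Mars with Mars2) a negative one. Mars, methionyl-tRNA synthetase, differed by 0.11 and Mars2 by 0.68.

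**Figure D4:**
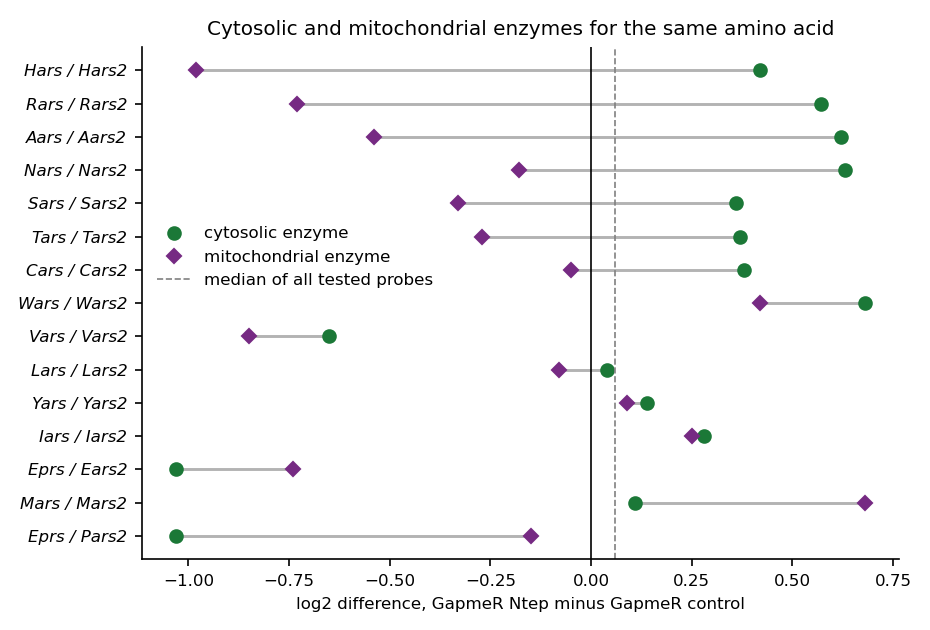
Log2 difference between the arrays labelled GapmeR Ntep and GapmeR control (x axis) for the cytosolic enzyme (circles) and the mitochondrial enzyme (diamonds) of the same amino acid, ordered by the gap between them. The dashed line is the median of all tested probes. The cytosolic enzyme lies to the right in 12 of the 15 pairs, with the widest gap among these pairs for Hars and Hars2 (1.41). The asparagine pair rests on a Nars2 probe near background, and the phenylalanine enzymes are not shown.

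Probes of the same gene differed in some cases. Of the 9 members with 2 probes, 6 had the same sign in both. For Pars2 (-0.15 and 0.18), Tars2 (-0.27 and 0.14) and Wars2 (0.42 and -0.08) the dimmer probe had the opposite sign, and no probe of these genes passed the test. Of these dimmer probes, that of Pars2 was well above background on 1 array only. The dimmer Aars probe was well above background on 1 GapmeR Ntep array and on no control array, so it gives only a bound of at least 1.11-fold higher (limma adjusted p = 0.0763). Both Vars2 probes were lower, at -0.85 and -0.59.

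Genes around the synthetases were read from lists of related factors. Of 11 other charging and editing genes 5 were higher and 6 lower (median -0.01). There, 1 rose after adjustment and 0 fell in limma, with 0 lower also at an unadjusted p under 0.05. Qrsl1, the catalytic subunit of the enzyme that makes glutaminyl-tRNA in mitochondria from the product of Ears2, gave 3630, 3165 and 3588 against 1862, 1434 and 1345. It rose by 1.17 (SE 0.19, limma adjusted p = 0.0339), opposite in sign to Ears2. Sepsecs, which makes selenocysteinyl-tRNA, was at 1.33 (limma adjusted p = 0.1) and passed with experiments as a block (0.0337). Without experiment 1 the limma adjusted p of Qrsl1 was 0.0509.

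The 10 genes of cytosolic elongation and of tRNA maturation and export had a median of -0.00, with 5 higher and 5 lower. Trnt1, which adds the CCA end that every tRNA needs before charging, gave 9599, 14321 and 11425 on the arrays labelled GapmeR Ntep against 25677, 26029 and 25531. It fell by 1.15 on the log2 scale (SE 0.20, limma adjusted p = 0.0361), and its other probes fell by 1.28 and 1.35. Elac2, which trims tRNA precursors, rose by its dimmer probe (0.93, limma adjusted p = 0.0361), with 0.65 for its brighter probe. The elongation factor genes Eef1a1, Eef1b2, Eef1d, Eef1g and Eef2 lay between -0.18 and 0.03. Without experiment 1 the 3 Trnt1 probes had limma adjusted p-values of 0.0681, 0.0573 and 0.0489, so the gene still passed by 1 of them, and the dimmer Elac2 probe had 0.0571. Among 10 mitochondrial translation factors the median was 0.09, with 6 higher and 4 lower, so the median of these genes was not below that of all probes. Mtif3, a mitochondrial initiation factor, rose by 1.13 by its brighter probe (limma adjusted p = 0.0477, and 0.0759 without experiment 1). Its dimmer probe, well above background on 5 arrays, had the opposite sign at -1.26 (limma adjusted p = 0.327) and was lower in all 3 experiments. Mrrf, the mitochondrial ribosome recycling factor, was at -0.68 (0.162) by its brighter probe, and fell at least 1.93-fold by a dimmer probe that was not well above background on any array labelled GapmeR Ntep (limma adjusted p = 0.0243).

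Of 19 regulators and markers of the integrated stress response 17 were higher and 2 lower, with a median of 0.79. Of these 19, 2 rose and 1 fell after adjustment, where 2.09% of all tested probes rose and 3.21% fell. With experiments as a block 7 were higher and 1 lower past the threshold, against 6.54% and 7.31% of tested probes. The 7 include Eif2ak4 by a dimmer probe at 1.33 (limma adjusted p = 0.0395 with the block). Its brightest probe, at -0.31, was among the 2 lower. Atf4 gave 13644, 10185 and 12637 against 5426, 3636 and 4384 at its dimmer probe. It rose there by 1.45 (SE 0.22, limma adjusted p = 0.0312), whereas its brighter probe was at 0.36 (0.224). The other genes past the threshold were 2 kinases that phosphorylate the initiation factor eIF2, Eif2ak1 at 0.81 (limma adjusted p = 0.043) and the interferon-inducible Eif2ak2 at -1.67 (0.0301). Ppp1r15b, which directs dephosphorylation of eIF2, had the largest positive difference at 1.77 (limma adjusted p = 0.0591) and passed with the block (0.0337). Without experiment 1 the adjusted p-values of Atf4, Eif2ak1 and Eif2ak2 in limma were 0.0553, 0.0618 and 0.0818. The median of the 13 synthetases commonly listed as ATF4 targets, at 0.28, lay between this list and all tested probes. So did the median of the 7 other cytosolic synthetases, at 0.22.

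**Figure D5:**
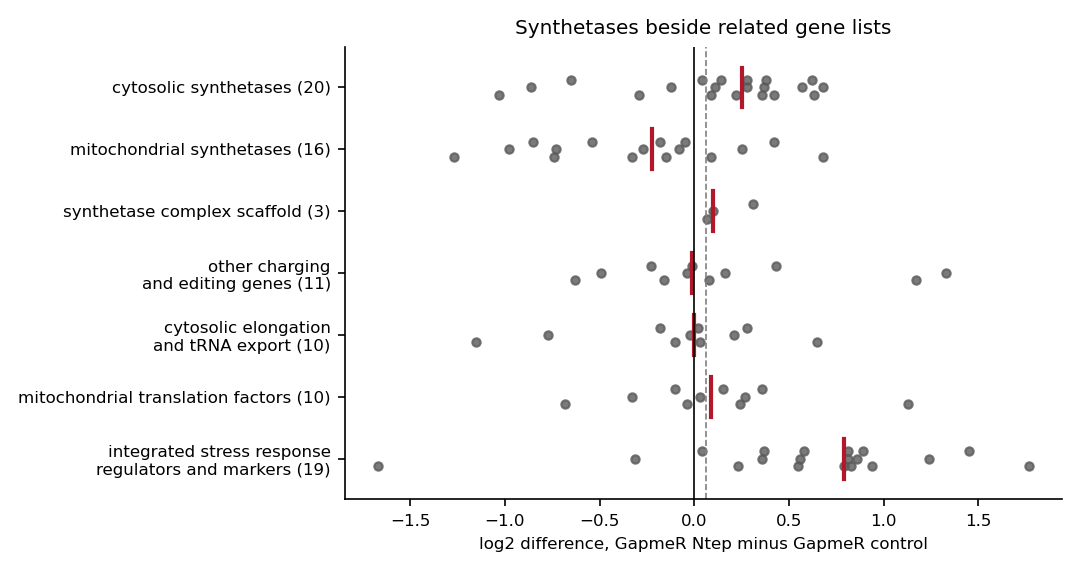
Log2 difference between the arrays labelled GapmeR Ntep and GapmeR control (x axis) for each gene by its brightest probe, by list, with the number of genes in parentheses. Red bars are list medians and the dashed line the median of all tested probes at 0.06. The stress response list has the highest median (0.79) and the mitochondrial synthetases the lowest (-0.23) of the 7 lists.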

How the data were processed

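Total RNA of 6 cultures was labelled in 1 color and hybridised to Agilent mouse arrays, whose format the methods and the supplementary documentation name differently. Per the labels and file headers, the authors extracted intensities with Agilent Feature Extraction 10.7.3.1. They deposited background-subtracted intensity values per array, not normalized between arrays, and a table of quantile-normalized intensities with values under 20 set to 20, which was used as an alternative.

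Spots of a probe were averaged, arrays quantile normalized over 55681 probes, values under 20 set to 20 and log2 taken. Where the brighter group averaged 50 or more, a probe was compared without pairing in limma 3.58.1 (R 4.3.3, with the package data.table, version 1.17.8), with Benjamini-Hochberg adjustment over 30990 probes. All p-values are two-sided. The supplementary documentation places the arrays in 3 experiments. Residuals of arrays with different labels correlated at 0.254 to 0.466 within an experiment and at -0.327 to 0.126 between experiments. The experiment was therefore also fitted as a block. Calls were tested on simulated arrays with 100 probes changed at each of 2 sizes. With 3 arrays per label, their number limits the precision.

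A gene passed with any probe and was otherwise read from the probe with the highest mean log2 signal. Values by array are given for members past the threshold and for the 4 cytosolic and 4 mitochondrial members with the largest differences, and at most 4 genes are named per related list, those past the threshold first. A few values outside this rule (Nars, Aars, Rars, Mars2, Eif2ak4, the elongation and scaffold genes) were chosen after they were seen. Some items are not reported here. Members and lists were chosen with earlier results of these data known. All 45 accessions of member probes matched RefSeq genes of GRCm38.p6, through which promoters were found. Bounds for probes not well above background use the lowest signal among probes well above background on each array. Other normalizations, background corrections, floors, filters, outlier spots, the methods' t-test, the mean over probes and leaving out each array were run as alternatives, and leaving out experiment 1 was added after the data had been seen.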

Additional observations from a re-analysis of the deposited data

How the results depend on the processing

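The count of cytosolic members past the adjusted threshold, 1 as reported, became 2 with scaling to the 75th percentile (Wars, and Aars by a dimmer probe that was not well above background on any control array, while its brighter probe had an adjusted p of 0.121), 3 with the replicate block, and 0 without the filter on dim probes, by the methods' t-test or with the mean over the probes of a gene. It ranged from 0 to 1 when single arrays were left out. The count of mitochondrial members, 0 as reported, became 1 with normexp background correction, with probes well above background on all arrays and with the replicate block. Over all tested probes the count of 1642 became 2557 with normexp, 564 without the filter, 2487 with probes well above background on all arrays, 4292 with the replicate block, 285 by the methods' t-test and 868 without experiment 1, an alternative chosen after the data had been seen, and ranged from 0 to 1437 without single arrays, so calls on single members rest on few arrays. The block raised Eprs, Qars and Fars2 past the threshold and changed no other member's call. The medians kept their sign in every alternative run, from 0.16 to 0.40 for the cytosolic list and from -0.40 to -0.07 for the mitochondrial list. Directions turned for Kars (0.12) and Lars2 (0.00) with scaling to the 75th percentile, and for Cars2 (0.18), Nars2 (0.35) and Pars2 (0.02) without experiment 1. They also turned when single arrays were left out for Lars (from -0.07 to 0.11), Mars (-0.08 to 0.37), Cars2 (-0.29 to 0.15), Lars2 (-0.26 to 0.13), Nars2 (-0.50 to 0.43) and Pars2 (-0.33 to 0.13). The cause of these changes was not tested. No member with a difference beyond 0.3 in size turned. With no count behind an intensity, no counting error can be given.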
